A study of Drosophila melanogaster with 64 samples.

Results

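Cuticle protein genes encode the structural proteins that bind chitin in the insect exoskeleton, and 126 of the 17481 genes counted in these fly heads belong to the families described here. They were chosen by symbol: 70 Cpr genes, 26 Twdl genes, 17 Lcp genes, 7 Ccp84A genes, 4 Vajk genes, Acp1 and Crys. Most Cpr, Lcp and Ccp84A proteins carry the Rebers and Riddiford chitin-binding domain, the Tweedle (Twdl) proteins form a separate insect family that helps to set body shape, and the Vajk proteins belong to the cuticular barrier. Crys (drosocrystallin), Cpr72Ec and Cpr66D are components of the corneal lens, the clear cuticle over each facet of the compound eye. Epidermal cells make most cuticle proteins in bursts around each moult, and the adult adds cuticle in layers during the days after it emerges, so a head of an adult fly holds transcripts of only some of the family.

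The RNA came from whole heads of male flies of the w1118 strain, reared at 25 °C with 12 h of light, with the heads of 20 flies pooled in each sample. Flies were 3 d old when they received a severe traumatic brain injury (TBI) or the sham procedure, and uninjured flies of that age served as the control at time 0. Each of these groups had 3 samples, except that the sham and TBI groups at 15 d had 2. Libraries of the controls and of the times from 1 h to 24 h were made on library day 2 (33 libraries), and those of the controls, 24 h, 3 d, 7 d, 10 d and 15 d on library day 1 (31 libraries). All groups shared the strain, the sex and the rearing, so only males of 1 strain were examined. Replicates were separate pools of heads, and the p-values measure the spread between such pools.

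Library day 1 gave 9.16 to 26.4 M gene counts in a library, and day 2 gave 18.6 to 44.9 M. Between 44 and 79 members had at least 1 count in a library of day 1, and between 62 and 81 in a library of day 2. Levels are given in CPM, the count of a gene for every 1 M gene counts of its library after scaling by a TMM factor. The 8 markers of epidermis, the cells that make cuticle, were all detected on both days, and their summed level stayed between 183 and 294 CPM in every group mean. One library stood apart for the members: replicate 3 of the 12 h sham group had 830 CPM of Cpr72Ec against 130 and 168 CPM in replicates 1 and 2, and 0.891 CPM of Crys against 12.9 and 15.5 CPM. The 12 h differences of the members that passed at that time are given with and without this library. Because whole heads were sequenced, fewer cells of a type and less RNA per cell cannot be told apart.

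A minority of the genes was expressed well enough to test. After a filter on low counts, 45 members were tested on day 2 and 49 on day 1, 50 in all, and 76 on neither day. These 76 reached at most 0.198 CPM as a mean and 0.710 CPM in any single library, and 8 members had no count in any of the 64 libraries. All 4 Vajk genes, Acp1 and Crys were tested, with 33 of the 70 Cpr genes, 4 of the 7 Ccp84A genes, 4 of the 26 Twdl genes (TwdlE, TwdlG, TwdlT and TwdlU) and 3 of the 17 Lcp genes (Lcp3, Lcp65Ac and Lcp65Ag2). The family lies in clusters, of which the largest holds 18 genes in 3L:6130386-6161589 of the BDGP6.54 assembly. A run of 12 Twdl genes at 3R:26619118-26641054 had no tested member. By contrast, 7 of the 8 genes in the cluster at 2R:12376626-12415170 were tested, the exception being Cpr49Ad. Near-identical copies such as Lcp65Ag1 to Lcp65Ag3, and the neighbours Ccp84Aa and Ccp84Ab, may share reads, and no source used here says how such reads were counted, so their separate levels are uncertain.

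Per kilobase of exon, the transcripts of Cpr65Au and Cpr72Ec were the most abundant members in uninjured flies. Cpr65Au (3L:6131242-6132109) had 226, 328 and 317 CPM in the day 2 controls, or 552 CPM per kb. Cpr72Ec (3L:16365894-16367340), a lens protein, had 321, 683 and 544 CPM, or 357 CPM per kb. The ranges of these leading genes overlapped per kilobase, and both lay above every other member in each control. Next came Cpr49Ag at 73.9 CPM per kb and Cpr49Ae at 67.7 CPM per kb, which overlapped each other, and then Cpr67B at 41.8, Cpr62Bb at 26.7 and Cpr100A at 16.4 CPM per kb, each apart from its neighbours in that order. From Cpr47Ee at 10.3 CPM per kb downwards, neighbours in the order overlapped, through TwdlG (9.64), Cpr73D (8.86), TwdlT (8.43), Cpr60D (6.01) and Crys (5.87 CPM per kb). The exons of Cpr65Au overlap an annotated antisense RNA and those of Cpr73D overlap Ogdh on the opposite strand. No source used here says whether strand was used in counting, so reads of the overlapping genes cannot be told apart.

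**Figure D1:**
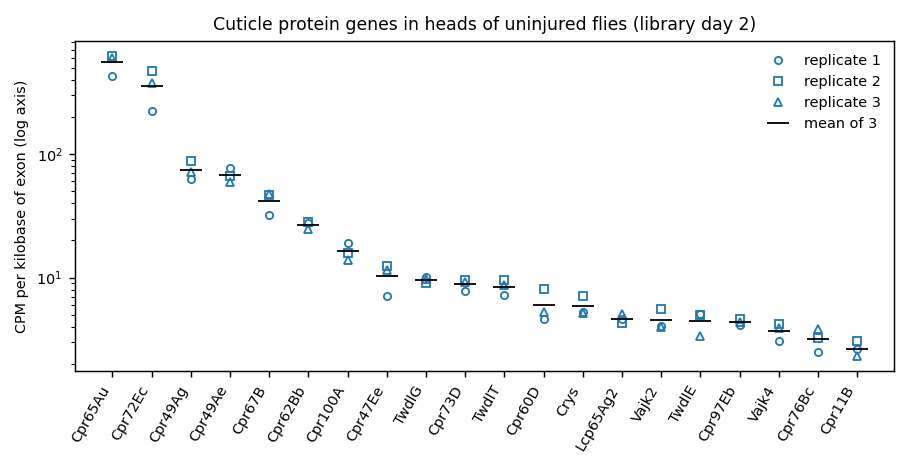
Level per kilobase of exon (CPM per kb, log axis) of the 20 most abundant members in the 3 control libraries of library day 2, with points for libraries and a mark for the mean. Cpr65Au (mean 552) and Cpr72Ec (mean 357) stand above all others, and most members lie under 10.3.

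The lens genes differed widely in level. Beside Cpr72Ec, Crys (2L:11944129-11947131) had 13.3 ± 2.53 CPM (SD, n = 3) in the day 2 controls, and Cpr66D reached 0.525 CPM per kb. Acp1, an adult cuticle protein gene, had 0.126 ± 0.0588 CPM (SD, n = 3). The Vajk genes spanned a small range of levels, with Vajk2 at 4.56, Vajk4 at 3.72, Vajk3 at 2.34 and Vajk1 at 1.06 CPM per kb. Vajk1, Vajk2 and Vajk3 lie together on 2L within the span of Ance-3, which is on the opposite strand. Cpr72Ec and Cpr65Au together set the total of the family, since Cpr72Ec alone took a median of 34.5% of all member counts on day 2 (range 16.4% to 67.4%) and Cpr65Au a median of 28.1% (13.3% to 40.8%).

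Several members changed over the first day in flies that were never injured. Across the control and sham groups of day 2, 12 of 45 members changed in a joint test, against 11.3% of all genes tested, and these included Ccp84Ab (adjusted p = 1.46e-05), TwdlT (4.43e-05) and TwdlE (0.000249), by edgeR's quasi-likelihood test with Benjamini-Hochberg adjustment, as throughout. The others were Cpr62Bb, Cpr73D, Ccp84Aa, Cpr11A, Cpr47Ef, Cpr97Ea, Cpr49Ae, Vajk3 and Cpr97Eb. Without replicate 3 of the 12 h sham group, 14 members changed. TwdlT (3R:27049220-27051004), a Tweedle gene, had 11.5, 15.2 and 13.9 CPM in the controls, 5.34, 4.96 and 4.86 CPM in the 6 h shams, 2.72, 3.31 and 7.39 CPM in the 12 h shams and 7.50, 8.26 and 10.5 CPM in the 24 h shams. All 6 h, 12 h and 24 h shams lay below all controls for TwdlT. The exons of TwdlE overlap lectin-28C on the opposite strand, and its level was 6.85, 6.70 and 4.50 CPM in the controls and 2.43, 3.24 and 3.25 CPM in the 24 h shams.

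Ccp84Ab (3R:6701968-6702877), one of the Ccp84A cluster, was near 0 in controls and rose in sham flies. Its counts gave 0.0307, 0.141 and 0 CPM in the day 2 controls, 0.663, 0.756 and 0.791 CPM at 3 h, 0.936, 0.936 and 1.31 CPM at 6 h, and 3.92, 2.51 and 4.52 CPM at 24 h. At 12 h the shams held 1.54, 2.12 and 0.066 CPM, the low value being replicate 3. Every sham library from 3 h on lay above every control, except that replicate at 12 h. Between the 24 h shams and the controls of day 2, 3 of 45 members passed (1.28% of all genes tested, with 0.754% higher and 0.521% lower): Ccp84Ab was higher by 5.92 ± 0.76 (log2 fold change ± standard error, adjusted p = 0.000184), Cpr97Ea was higher by 2.95 ± 0.74 (adjusted p = 0.0431) and TwdlE was lower, at -1.01 ± 0.25 (adjusted p = 0.0423). Leaving out any 1 of these 6 libraries left 1 call, that of Ccp84Ab.

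In the libraries of day 1, made from RNAs with the same labels, 5 of 49 members were higher in the 24 h shams than in the controls and none was lower, against 1.41% higher among all genes tested and 2.09% in either direction. Ccp84Aa (3R:6704084-6704903) had 3.67, 2.78 and 3.73 CPM in the shams and no count in any control, which is at least 52.7-fold higher with a floor of 3 counts over the control group. Ccp84Ab had 15.7, 10.7 and 21.0 CPM in the shams against 0, 0.310 and 0.0574 CPM in the controls (log2 fold change 7.12 ± 1.02, edgeR adjusted p = 0.000729). Acp1 (2L:7740562-7741537) had 15.0, 5.60 and 10.5 CPM against 0.941, 0.155 and 2.12 CPM (3.20 ± 0.57, edgeR adjusted p = 0.00453). In all of these genes the shams and the controls did not overlap. Cpr97Ea rose from 0.235, 0 and 0.516 CPM to 3.08, 1.53 and 2.73 CPM (3.14 ± 0.57, edgeR adjusted p = 0.00499). Vajk3 rose from 3.29, 2.48 and 2.93 CPM to 8.58, 6.35 and 7.79 CPM (1.37 ± 0.25, edgeR adjusted p = 0.00512). In a fit of the sham and control groups alone, Acp1, Cpr97Ea and Vajk3 lost their calls (edgeR adjusted p = 0.143, 0.253 and 0.104). These groups also differ by 1 d of age and by the sham procedure, which cannot be told apart.

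The rise was over by 3 d. Against the 24 h shams, 6 of 49 members were lower in the 3 d shams and none was higher, where 0.293% of all genes passed and 0.256% were lower. Ccp84Ab fell to 0.133, 0.0423 and 0 CPM (log2 fold change -7.90 ± 1.04, edgeR adjusted p = 0.000266) and Acp1 to 0.178, 0.676 and 0.461 CPM (-4.53 ± 0.62, edgeR adjusted p = 0.000266). Ccp84Aa went from 207 counts in the 24 h shams to 2 in the 3 d shams, a ratio of 114 in CPM with a 95% counting interval of 31.0 to 943. Every 3 d sham of these genes lay below every 24 h sham. Cpr97Ea returned to 0.0888, 0.296 and 0.184 CPM (-3.62 ± 0.57, edgeR adjusted p = 0.00174) and Vajk3 to 2.62, 2.41 and 2.72 CPM (-1.55 ± 0.25, edgeR adjusted p = 0.00206). Vajk2 was lower at -1.05 ± 0.21 (edgeR adjusted p = 0.0188), a call lost without replicate 1 of the 24 h shams or any 1 of the 3 d shams. A fit of the groups compared alone lost the calls of Vajk2 and Cpr97Ea. In later shams Ccp84Ab stayed at or under 0.173 CPM, except for 1.61 CPM in replicate 3 at 7 d and 3.79 CPM in replicate 2 at 15 d.

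**Figure D2:**
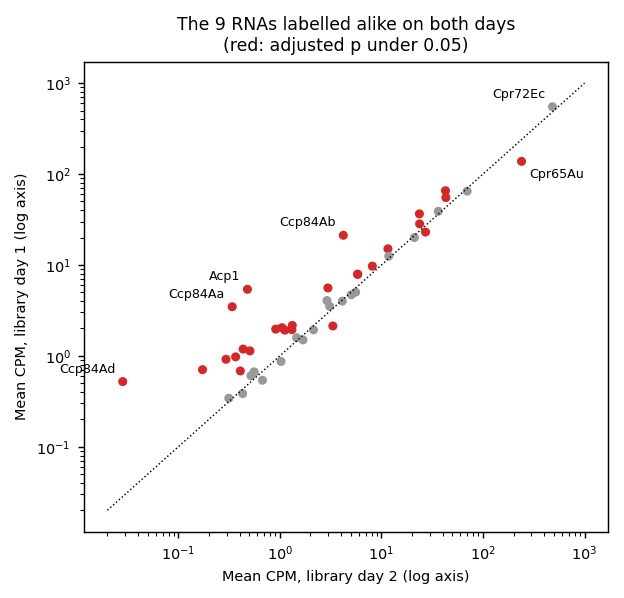
Mean level of each member in CPM on library day 1 (one axis) against library day 2 (other axis), over the 9 RNAs labelled alike on both days, with both axes on a log scale and members past the threshold in red. Ccp84Ab, Acp1 and Ccp84Aa lie above the diagonal on the day 1 side, and Cpr65Au lies on the day 2 side.

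The level of these genes depended on the library day as well. Over the 9 RNAs labelled alike on both days, 24 of 47 members were higher on day 1 and 3 were lower, 57.4% of the members where 65.2% of all genes passed; this comparison was added after the data were seen. Same-numbered RNAs deviated together across days at 24 h (r = 0.305 to 0.55 over genes) and weakly in the controls (0.0202 to 0.272), and the series text counts 52 unique RNAs where the labels give 55, so that these pairs are the same RNAs rests on the labels. Acp1 averaged 5.40 CPM on day 1 and 0.479 CPM on day 2, Ccp84Ab 21.2 and 4.21 CPM, and Ccp84Aa 3.47 and 0.339 CPM. Cpr65Au went the other way, with 138 CPM on day 1 and 240 CPM on day 2. Levels are therefore compared only within a day.

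In the 10 d shams of day 1 most of the members that differed from the 24 h shams were lower. The 10 d and 24 h shams were compared after the data were seen, as the sham groups of 3 samples farthest apart in age. Of 49 members, 20 passed, 19 lower and 1 higher at 10 d, against 11.2% lower and 8.54% higher among all genes (19.8% in all), and the median change was -0.70 on the log2 scale over the members tested and 0.02 over all genes. Leaving out 1 library at a time gave 14 to 19 calls. The 6 members already lower in the 3 d shams were among the 19, so their calls repeat a fall from the same 24 h libraries. Age and the time since the sham procedure rose together and cannot be told apart. Genes of the Ccp84A cluster were among the 19 lower members. Ccp84Aa had no count at 10 d (at least 49.2-fold lower). Ccp84Ab went from 963 counts to 3 (ratio 229, counting interval 78.1 to 1112). Ccp84Ag went from 63 counts to 2 (22.5, 5.97 to 190) and Ccp84Ad from 26 counts to 0 (at least 6.18-fold lower). Neither Ccp84Ag nor Ccp84Ad had passed between the 24 h shams and the controls of day 1 (edgeR adjusted p = 0.489 and 0.0945). Acp1 was lower at -6.16 ± 0.77 (edgeR adjusted p = 8.09e-06) and Cpr97Ea at -3.52 ± 0.61 (edgeR adjusted p = 0.000286).

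Vajk genes, the lens gene Crys and abundant Cpr genes were lower as well. Vajk2 had 12.9, 9.91 and 11.2 CPM at 24 h and 2.11, 3.42 and 4.21 CPM at 10 d (log2 fold change -1.81 ± 0.22, edgeR adjusted p = 6.58e-06). Vajk3 had 2.11, 1.07 and 2.21 CPM at 10 d (-2.07 ± 0.27, edgeR adjusted p = 9.97e-06), and Vajk1 fell by 0.90 (adjusted p = 0.0204). Crys, the lens protein gene, had 23.01, 18.9 and 14.6 CPM at 24 h and 7.34, 2.14 and 5.98 CPM at 10 d (-1.87 ± 0.42, edgeR adjusted p = 0.00355). None of these genes overlapped between the 24 h and the 10 d shams. Cpr49Ag went from 84.6, 58.2 and 58.3 CPM to 33.9, 41.9 and 39.0 CPM (-0.81 ± 0.20, edgeR adjusted p = 0.0067), a call lost without replicate 1 of the 24 h shams. Its neighbour Cpr49Ae went from 63.2, 69.5 and 85.9 CPM to 47.3, 49.0 and 28.6 CPM (-0.81 ± 0.25, edgeR adjusted p = 0.0275), a call lost without replicate 3 of the 10 d shams, without any 1 of the 24 h shams or with no filter on low counts. Cpr100A had 38.1, 32.4 and 38.1 CPM at 24 h and 16.5, 14.2 and 12.2 CPM at 10 d (-1.34 ± 0.27, edgeR adjusted p = 0.00165). The 24 h and 10 d shams did not overlap in any of these 3 genes. Cpr62Bb, Cpr62Bc, Cpr92F, Cpr97Eb, Cpr76Bd and Cpr11A fell too. The calls of Vajk1 and Cpr11A were lost without replicate 1 or 3 of the 10 d shams or replicate 1 of the 24 h shams, that of Cpr11A also without replicate 3 of the 24 h shams, and that of Cpr97Eb without replicate 3 of the 10 d or replicate 1 of the 24 h shams. Those of Cpr76Bd and Ccp84Ad were lost without replicate 1 or 2 of the 10 d or replicate 2 of the 24 h shams. Replicate 1 of the 24 h shams also decided the call of Cpr76Bd, as did replicate 3 of either group that of Ccp84Ad. DESeq2 lost the call of Ccp84Ad. A fit of the groups compared alone lost those of Cpr76Bd and Cpr97Eb, and that of Cpr11A was lost with no filter on low counts.

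Cpr72Ec was the member that was higher at 10 d than at 24 h. It had 548, 626 and 566 CPM in the 24 h shams and 1191, 980 and 988 CPM in the 10 d shams (log2 fold change 0.86 ± 0.18, edgeR adjusted p = 0.0016), with no overlap, and 1400 and 929 CPM at 15 d. The lens gene Crys thus moved in the opposite direction to Cpr72Ec over the same libraries, with 2.42 and 3.02 CPM at 15 d. Between neighbouring later ages no member passed: at 7 d against 3 d, 10 d against 7 d and 15 d against 10 d, edgeR gave 0 calls among 49 members (0.151%, 0% and 0% of all genes), with 2, 2 and 5 members at an unadjusted p under 0.05, and DESeq2 gave 1, 0 and 0. Over all control and sham groups of day 1, 20 of 49 members changed in the joint test (34.3% of all genes). Marker sums of other cells moved over the same ages: neuronal markers (10 genes, none at 0 in all libraries) summed to 8769 to 13250 CPM at 24 h and 7034 to 7442 CPM at 10 d, photoreceptor markers (14 genes, none at 0) to 70860 to 79210 and 84020 to 102600 CPM, and gut markers (9 genes, none at 0) to 227 to 382 and 592 to 894 CPM. Markers of cone and pigment cells, which lie under the lens (8 genes, none at 0), summed to 1311 to 1739 CPM at 24 h and 1126 to 1221 CPM at 10 d, muscle markers (11 genes, none at 0) to 4153 to 4802 and 3024 to 3406 CPM, and glial markers (9 genes, none at 0) to 1906 to 2350 and 1571 to 1815 CPM. Epidermal markers overlapped, at 235 to 255 CPM and 245 to 282 CPM. The part of these cells in the results was not tested.

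**Figure D3:**
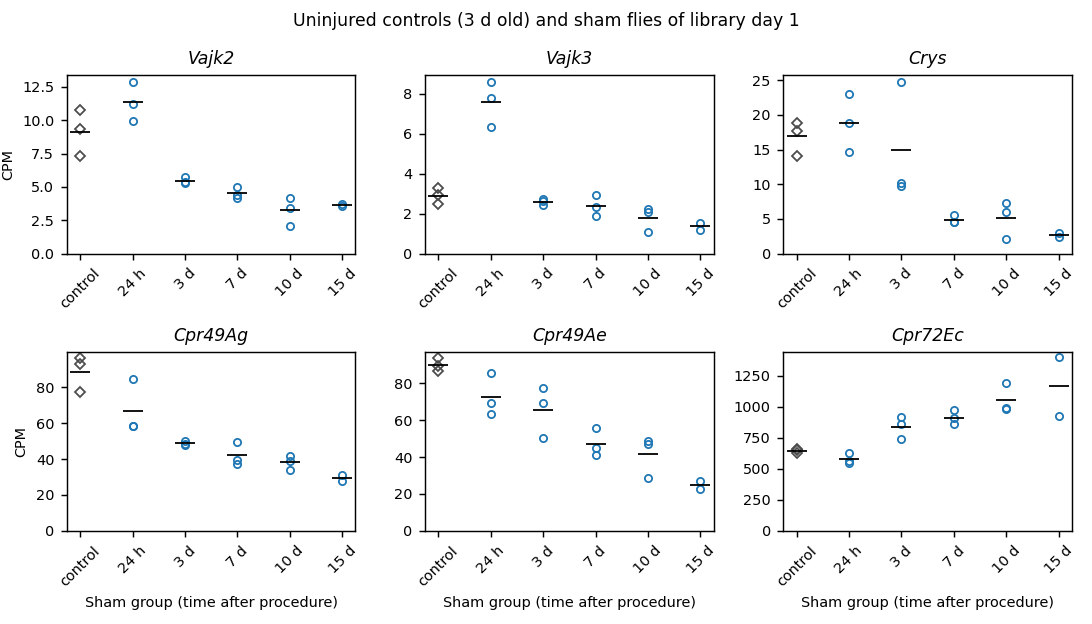
Level in CPM of Vajk2, Vajk3, Crys, Cpr49Ag, Cpr49Ae and Cpr72Ec in each control and sham library of library day 1, by time after the sham procedure, with points for libraries and dashes for group means. Cpr72Ec climbs from 548 to 626 at 24 h to between 980 and 1191 at 10 d, and the other genes are lower at 10 d than at 24 h.

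Of the 50 members tested, 16 (32%) differed between TBI and sham in at least 1 comparison, as did 33.1% of all genes, and every such call fell within 24 h. Members that passed between TBI and sham numbered 0 of 45 at 1 h, 5 at 3 h (3 higher, 2 lower), 10 at 6 h (5 and 5), 8 at 12 h (7 and 1) and 6 at 24 h (6 and 0) on day 2, where 7.39%, 16.5%, 12.1%, 8.62% and 8.4% of all genes passed. Higher calls made up 4.98%, 10.5%, 7.88%, 4.99% and 6.2% of all genes at these times, and lower calls 2.41%, 6%, 4.26%, 3.63% and 2.2%. On day 1, 8 of 49 members were higher at 24 h and none was lower, where 15% of all genes passed, with 7.61% higher and 7.41% lower. The median log2 fold change over all tested members stayed between -0.09 and 0.11 and that over all genes between -0.01 and 0.02 in these comparisons. On day 2, 15 of 45 members passed at least once (33.3%, where 26.2% of all genes did), 8 of them only higher, 6 only lower and Cpr100A in both directions, while 30 passed at no time. At 1 h, 2 members had an unadjusted p under 0.05, and DESeq2, the fit with the replicate number as a block and the fit without TBI replicate 1 each called 1. The counts depended on single libraries: leaving out 1 at a time gave 2 to 5 calls at 3 h (2 without sham replicate 1, 3 without sham replicate 3 and 2 without TBI replicate 1), 6 to 8 at 6 h (6 without sham or TBI replicate 1), 5 to 9 at 12 h (5 without TBI replicate 2 or TBI replicate 3), 2 to 6 at 24 h on day 2 (2 without TBI replicate 3, 3 without sham replicate 1) and 2 to 7 at 24 h on day 1 (4 without sham replicate 1 or sham replicate 2 and 2 without TBI replicate 3).

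**Figure D4:**
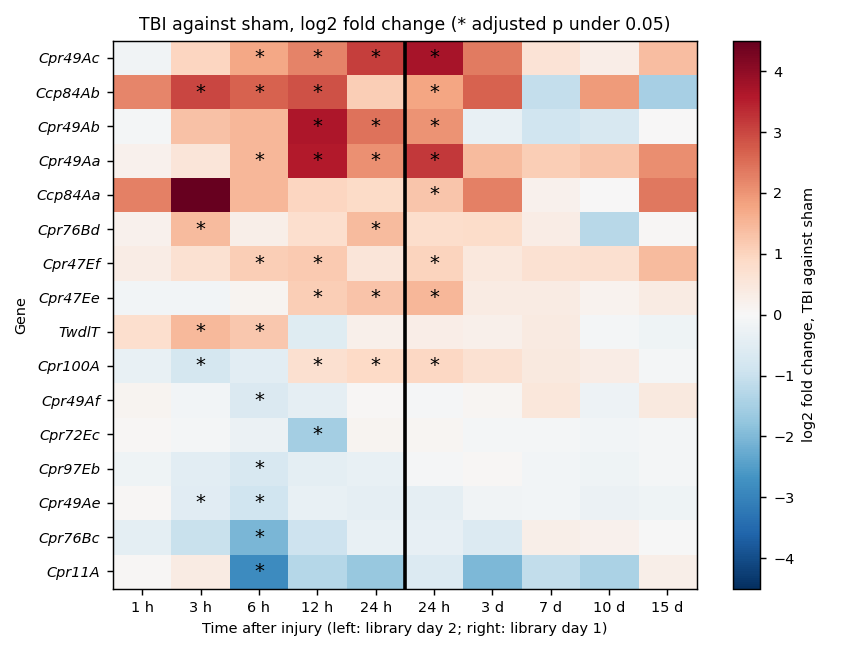
Log2 fold change of TBI against sham for the 16 members that passed at any time, in the 10 comparisons, with day 2 (1 h to 24 h) on the left, day 1 (24 h to 15 d) on the right, red for higher, blue for lower, and a star where the adjusted p was under 0.05. Stars for Ccp84Ab and TwdlT begin at 3 h, those for Cpr49Aa and Cpr49Ac at 6 h, and no star is seen from 3 d on.

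Neighbouring genes of the 49A cluster were higher after TBI between 6 h and 24 h. Cpr49Aa (2R:12376626-12377378) had 0.118, 0.353 and 0.099 CPM in the 12 h shams and 2.11, 1.97 and 2.30 CPM after TBI (log2 fold change 3.56 ± 0.46, edgeR adjusted p = 5.28e-06). Next to it, Cpr49Ab (2R:12378440-12379396) had 0.148, 0.0441 and 0.099 CPM against 1.20, 1.25 and 1.55 CPM (3.65 ± 0.60, edgeR adjusted p = 0.000139). Cpr49Ac (2R:12386666-12390057) had 0.148, 0.0881 and 0.198 CPM against 0.438, 0.965 and 0.749 CPM (2.24 ± 0.41, edgeR adjusted p = 0.000552). Without sham replicate 3 the differences were 3.26, 3.62 and 2.51 and all 3 passed. Sham and TBI libraries did not overlap in any of these 3 genes at 12 h, all of which code for proteins of the Rebers and Riddiford type.

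The same genes passed again at 24 h in both sets of libraries, which share their RNAs by label. Cpr49Ac had 0.0993, 0.170 and 0.135 CPM in the day 2 shams and 0.777, 1.02 and 1.88 CPM after TBI (3.12 ± 0.41, edgeR adjusted p = 6.46e-06). Cpr49Aa was higher by 2.07 ± 0.42 on day 2 and by 3.20 ± 0.49 on day 1 (edgeR adjusted p = 0.00141 and 9.42e-05). Cpr49Ab was higher by 2.46 ± 0.62 and 2.03 ± 0.48, a call lost without TBI replicate 3 on either day and without sham replicate 1 on day 2. On day 1 Cpr49Ac was higher by 3.72 ± 0.84 (edgeR adjusted p = 0.00418), with 0.512, 0.910 and 3.17 CPM after TBI, and that call was lost without TBI replicate 3. At 6 h the calls of Cpr49Ac (1.74 ± 0.48) and Cpr49Aa (1.49 ± 0.49) were lost in several alternatives. That of Cpr49Ac was lost by DESeq2 and without sham replicate 3 or TBI replicate 1. That of Cpr49Aa was lost with no filter on low counts, with the replicate block and without any library but TBI replicate 3.

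Further along the same cluster the direction was the opposite. Cpr49Ae (2R:12402216-12405108), one of the abundant members, had 86.6, 70.6 and 71.9 CPM in the 3 h shams and 48.8, 58.5 and 51.8 CPM after TBI (log2 fold change -0.53 ± 0.17, edgeR adjusted p = 0.0349). At 6 h it had 70.4, 82.1 and 71.1 CPM against 36.3, 45.2 and 39.2 CPM (-0.89 ± 0.17, edgeR adjusted p = 0.000791). Sham and TBI libraries did not overlap at either time. Cpr49Af had 3.02, 2.48 and 2.82 CPM against 1.52, 2.14 and 1.65 CPM at 6 h (-0.66 ± 0.18, edgeR adjusted p = 0.0167), and Cpr49Ag did not pass (-0.56 ± 0.22, edgeR adjusted p = 0.107). The 3 h call of Cpr49Ae was lost without sham replicate 1 or 3 or TBI replicate 1 or 3. That of Cpr49Af at 6 h was lost in a fit of the groups compared alone and without sham replicate 1 or TBI replicate 1 or 3.

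The adjacent genes Cpr47Ee (2R:11265126-11266856) and Cpr47Ef (2R:11266915-11272575), which lie on opposite strands, were both higher after TBI. Cpr47Ef had 4.79, 3.28 and 3.05 CPM in the 6 h shams and 9.99, 8.03 and 6.09 CPM after TBI (log2 fold change 1.12 ± 0.26, edgeR adjusted p = 0.0037), and 2.48, 2.56 and 1.42 against 3.95, 5.43 and 5.10 CPM at 12 h (1.17 ± 0.27, edgeR adjusted p = 0.00521, and 0.94 without sham replicate 3, still past the threshold). Cpr47Ee had 19.6, 15.7 and 12.3 CPM in the 12 h shams and 29.7, 40.1 and 33.6 CPM after TBI (1.12 ± 0.33, edgeR adjusted p = 0.0287). At each of these times every TBI library exceeded every sham library. At 24 h Cpr47Ee had 19.7, 26.0 and 31.4 CPM against 50.6, 70.8 and 96.7 CPM on day 1 (1.50 ± 0.20, edgeR adjusted p = 1.98e-05) and was higher by 1.27 ± 0.33 on day 2 (edgeR adjusted p = 0.0131). The 12 h call of Cpr47Ee was lost with no filter on low counts, without sham replicate 2, without sham replicate 3 (0.96) or without TBI replicate 2 or 3. Its 24 h call on day 2 was lost without sham replicate 1 or 2 or TBI replicate 3. Cpr47Ef passed at 24 h on day 1 alone (1.00 ± 0.30, edgeR adjusted p = 0.0276), a call lost without sham replicate 1 or 2 or TBI replicate 1 or 3. A fit of the groups compared alone lost that call and also the 6 h call of Cpr47Ef.

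Cpr100A (3R:30867521-30869184) changed direction with time. At 3 h it had 26.8, 20.2 and 18.7 CPM in the shams and 10.6, 15.2 and 12.2 CPM after TBI (log2 fold change -0.79 ± 0.22, edgeR adjusted p = 0.0119), a call lost without sham or TBI replicate 1. By 24 h it had 26.2, 26.2 and 28.9 CPM in the day 2 shams and 44.7, 45.1 and 62.5 CPM after TBI (0.90 ± 0.21, edgeR adjusted p = 0.0065). TBI libraries lay wholly below the shams at 3 h and wholly above them at 24 h. On day 1 it was higher by 0.92 ± 0.26 at 24 h, with 38.1, 32.4 and 38.1 CPM in shams and 61.3, 55.7 and 88.9 CPM after TBI. Both 24 h calls were lost without TBI replicate 3, and that of day 1 also without sham replicate 1 or 2. At 12 h the difference was 0.73 ± 0.21 (edgeR adjusted p = 0.0296) and 0.43, no longer past the threshold, without sham replicate 3. That call was also lost without TBI replicate 2 or 3 and in a fit of the 12 h groups alone.

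Ccp84Ab and TwdlT were already higher after TBI at 3 h. Ccp84Ab had 0.663, 0.756 and 0.791 CPM in the 3 h shams and 5.73, 6.57 and 5.54 CPM after TBI (log2 fold change 3.00 ± 0.51, edgeR adjusted p = 0.000103). At 6 h it had 8.09, 7.24 and 4.86 CPM after TBI (2.64 ± 0.48, edgeR adjusted p = 0.000426) and at 12 h 6.46, 9.36 and 10.8 CPM (2.88 ± 0.48, edgeR adjusted p = 0.000173, and 2.30 ± 0.36 without sham replicate 3). Every TBI library lay above every sham library at these 3 times, and the 12 h call was lost only in a fit of the 12 h groups alone among the alternatives run. Since the shams rose as well, the difference at 24 h on day 2 was 1.12 ± 0.43 and did not pass (edgeR adjusted p = 0.124). On day 1 it was 1.79 ± 0.56 (edgeR adjusted p = 0.0357), a call lost by DESeq2, with no filter on low counts, and without sham replicate 1 or 2 or TBI replicate 2 or 3. Its neighbour Ccp84Aa was higher by 1.26 ± 0.41 (edgeR adjusted p = 0.0471), a call lost with no filter on low counts and without any 1 of the 6 libraries.

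TwdlT had 15.0, 14.6 and 10.4 CPM in the 3 h shams and 39.2, 38.0 and 33.7 CPM after TBI (log2 fold change 1.48 ± 0.24, edgeR adjusted p = 6.57e-05). At 6 h it had 5.34, 4.96 and 4.86 CPM against 8.85, 14.6 and 11.7 CPM (1.21 ± 0.25, edgeR adjusted p = 0.00161). Sham and TBI libraries did not overlap at either time. At 1 h the difference was 0.75 ± 0.24 (edgeR adjusted p = 0.0585). At 12 h the TBI libraries held 2.75, 3.22 and 3.28 CPM, a difference of -0.54 ± 0.27 (edgeR adjusted p = 0.284) that was 0.05 ± 0.23 without sham replicate 3, and TwdlT passed at no later time.

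**Figure D5:**
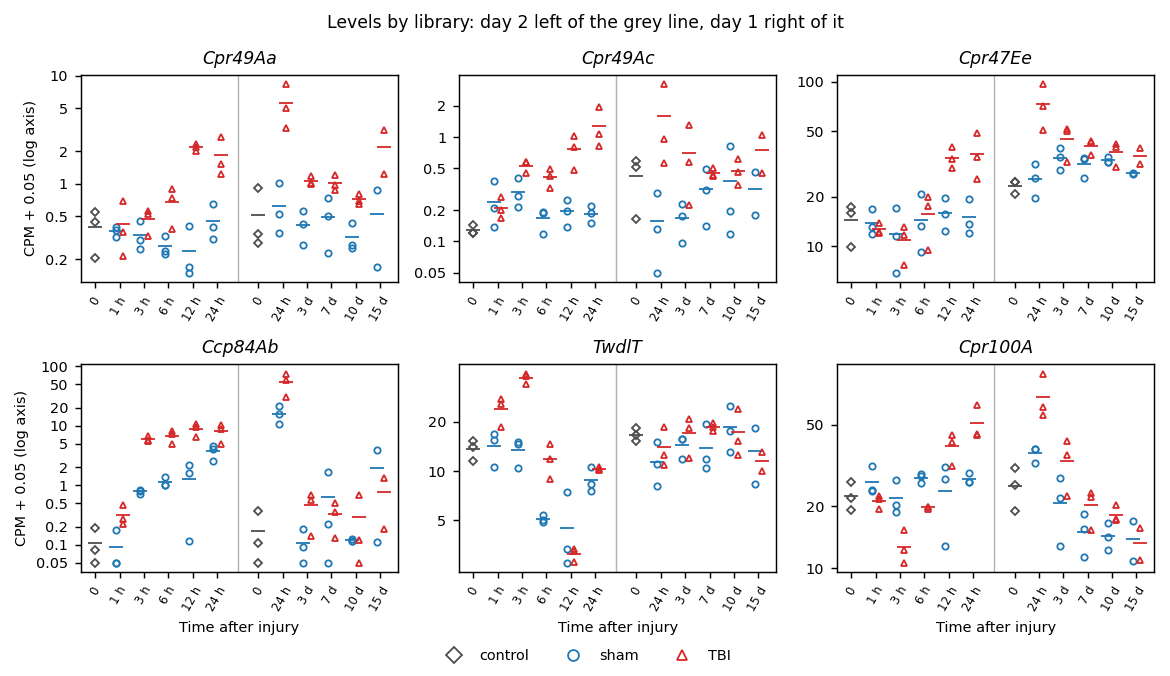
Level in CPM, with 0.05 added and on a log axis, of Cpr49Aa, Cpr49Ac, Cpr47Ee, Ccp84Ab, TwdlT and Cpr100A in every library, with library day 2 left of the grey line and day 1 right of it, diamonds for controls, circles for sham, triangles for TBI and dashes for group means. TwdlT triangles peak at 3 h, between 33.7 and 39.2, and those of Cpr47Ee on day 1 peak at 24 h, between 50.6 and 96.7.

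The size of the TBI effect depended on the time for 4 of 45 members of day 2, in a joint test of all 5 times that 3.68% of all genes passed. These were Cpr100A (edgeR adjusted p = 0.00129), TwdlT (0.00453), Cpr49Aa (0.0204) and Cpr49Ac (0.0285). Without replicate 3 of the 12 h shams Cpr49Aa did not pass (edgeR adjusted p = 0.057) and Cpr49Ae did (0.00634). Over the 5 times of day 1 the joint test passed for 0 of 49 members by edgeR (0.407% of all genes), with 4 at an unadjusted p under 0.05, 1 called by DESeq2 and 1 called without TBI replicate 1 of 24 h.

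The remaining calls, beside that of the lens gene Cpr72Ec, concerned Cpr76Bd, Cpr76Bc, Cpr97Eb and Cpr11A. Of these, only Cpr11A had a lower mean level over day 2 than Cpr49Aa, Cpr49Ab and Cpr49Ac. Cpr76Bd (3L:19532743-19538289) was higher at 3 h, with 0.564, 0.716 and 0.696 CPM in shams and 1.81, 1.94 and 1.65 CPM after TBI (log2 fold change 1.44 ± 0.45, edgeR adjusted p = 0.0268), and at 24 h on day 2 (1.43 ± 0.44, edgeR adjusted p = 0.042). Its neighbour Cpr76Bc (3L:19520945-19527272) was lower at 6 h, with 9.40, 6.41 and 3.57 CPM in shams and 2.11, 1.58 and 0.897 CPM after TBI (-2.04 ± 0.45, edgeR adjusted p = 0.00295). Neither gene overlapped between sham and TBI at those times. Cpr97Eb was lower at 6 h, with 3.75, 3.84 and 3.48 CPM in shams and 2.18, 2.55 and 1.89 CPM after TBI (-0.74 ± 0.24, edgeR adjusted p = 0.0432). That call was lost in the fit with replicate blocks, in a fit of the 6 h groups alone and without any 1 of the 6 libraries. The calls of Cpr76Bd were lost without each library but TBI replicate 3 at 3 h and each but TBI replicate 1 at 24 h. The 24 h call was also lost with the replicate block and with no filter on low counts. Cpr11A had 21 counts in the 6 h shams and 2 after TBI (ratio 8.02, counting interval 1.96 to 70.5). Its call was lost by DESeq2 and without sham replicate 1 or TBI replicate 1 or 3.

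Among the lens genes, a single call rested on the library that stood apart. Cpr72Ec was lower after TBI at 12 h, with 155, 124 and 115 CPM against 130, 168 and 830 CPM in shams (log2 fold change -1.52 ± 0.42, edgeR adjusted p = 0.0208). Without sham replicate 3 the difference was -0.18 and the adjusted p was 0.823, the top of the range of 0.00164 to 0.823 over the alternatives for this value. The 12 h count without that library was 8, of which 5 were higher and 3 lower, the lower ones being Cpr49Ae (-0.62), Cpr97Eb (-0.75) and Cpr62Bc (-1.07). Crys differed by -0.35 to 0.76 between TBI and sham over the 10 comparisons and Cpr66D by up to 1.52 ± 0.40, at 7 d (edgeR adjusted p = 0.126), and neither passed at any time. Acp1 passed between TBI and sham at no time, nor did any Vajk or Lcp gene.

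From 3 d on no member differed between TBI and sham past the threshold. At 3 d, 7 d, 10 d and 15 d, 0 of 49 members passed by edgeR, where 1.35%, 0.227%, 0.473% and 0.0379% of all genes passed, with 7, 3, 2 and 7 members at an unadjusted p under 0.05 and 0, 1, 0 and 0 calls by DESeq2. The estimates of some members remained well above 0 with wide errors. Cpr49Aa differed by 1.44 ± 0.59 at 3 d (edgeR adjusted p = 0.377) and by 2.09 ± 0.64 at 15 d (edgeR adjusted p = 0.359), with 0.118 and 0.819 CPM in the 15 d shams and 1.18 and 3.08 CPM after TBI. Cpr47Ef differed by 1.42 ± 0.40 at 15 d (edgeR adjusted p = 0.287). Cpr47Eb, a gene with few counts, had none in any control or sham library of day 1. After TBI it had 1, 8 and 0 counts at 3 d and 13, 2 and 4 at 7 d. At 10 d the TBI libraries held 2, 0 and 10 counts, and at 15 d they held 1 and 13. It passed at none of these times and was not tested on day 2.

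Markers of other cells also differed between sham and TBI libraries. Summed fat body markers (9 genes, none at 0 in all libraries) were 5966 to 7861 CPM in the 3 h shams and 2327 to 3566 CPM after TBI, and 6757 to 10890 against 3761 to 6128 CPM at 6 h. Epidermal markers were 210 to 261 CPM in the 3 h shams and 170 to 210 CPM after TBI, and 194 to 211 against 185 to 196 CPM at 6 h. Oenocyte markers (11 genes, none at 0) were 2462 to 3228 CPM in the 6 h shams and 1568 to 1694 CPM after TBI. They were 3289 to 4026 against 1803 to 2791 CPM at 3 h. Fat body markers were also apart at 1 h, when no member passed, at 6853 to 10560 CPM in shams and 4156 to 6130 CPM after TBI. They were apart at 12 h too, at 9798 to 12170 CPM in shams and 5829 to 8310 CPM after TBI. At 24 h they were apart on day 1, at 5752 to 8497 and 3822 to 5490 CPM, and overlapped on day 2. Hemocyte markers (8 genes, none at 0) were apart at 1 h, at 114 to 198 CPM in shams and 51.7 to 80.0 CPM after TBI. Of 9 glial markers, 5 passed at 3 h (2 higher, 3 lower) and 5 at 6 h (1 higher, 4 lower), where 16.5% and 12.1% of all genes passed. At 24 h on day 1, neuronal markers (10 genes, none at 0) were 8769 to 13250 CPM in shams and 7280 to 8107 CPM after TBI. Of these 10 markers 8 were lower, where 7.41% of all genes were lower. At 24 h on day 2, in RNAs labelled alike, none of the 10 passed. Their sums there overlapped, at 9294 to 11380 CPM in shams and 7950 to 9350 CPM after TBI. Markers of the male reproductive tract, a tissue outside the head (10 genes, 1 at 0 in all libraries), summed to at most 2.10 CPM in any library, with means of 1.86 CPM after TBI and 0.66 CPM in shams at 1 h, and the 1 marker tested was higher at 1, 3 and 6 h. The part of these cells in the results was not tested.

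Genes listed for tanning and pigment changed in the same hours, mostly upwards. Because whole heads were sequenced, the cells that held their RNA are not known, and a change in tanning itself was not tested. Of 17 tested tanning and pigment genes, 6 were higher and none lower at 1 h, 5 and 1 at 3 h, 4 and 2 at 6 h, 2 and 1 at 12 h, and 1 and 0 at 24 h on day 2. Among all genes the shares higher at these times were 4.98%, 10.5%, 7.88%, 4.99% and 6.2%. The gene b, which codes for the aspartate decarboxylase that makes beta-alanine for tanning, was at 17.7 CPM in the 6 h shams and 106 CPM after TBI (log2 fold change 2.58 ± 0.18, edgeR adjusted p = 2.64e-10), and it was still higher by 2.12 at 24 h on day 2. The multicopper oxidase gene Mco1 was higher by 1.61, 2.43, 1.97 and 1.68 at 1, 3, 6 and 12 h. It was counted by its place in the list, and a part in tanning was not tested. The listed genes speck and stw had no match in the annotation and were not examined. The genes e (ebony, which couples beta-alanine to dopamine), ple (tyrosine hydroxylase) and yellow-b passed upwards at 3 h with 1.56, 0.89 and 1.50, and AANATL2 passed downwards with -0.83. Sham means of Mco1 ran from 8.48 to 11.8 CPM at these times, and its TBI means from 32.6 to 46.1 CPM.

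Genes that modify chitin changed in both directions. Of 5 tested chitin deacetylases, 2 were lower at 3 h and 1 at 6 h (6% and 4.26% of all genes), and 2 were higher at both 12 h and 24 h on day 2 (4.99% and 6.2% of all genes). The gene serp (serpentine) was higher by 1.56 ± 0.24 at 12 h and 1.39 ± 0.24 at 24 h, and on day 1 by 1.42 at 24 h, 1.30 at 3 d (edgeR adjusted p = 0.0138) and 1.34 at 7 d (edgeR adjusted p = 0.0453). Its relative verm (vermiform) was lower at 3 h (-0.57) and higher at 12 h (1.16) and 24 h (1.06). The deacetylase gene Cda4 was lower at 3 h (-1.05) and 6 h (-1.75). Of 13 tested chitinases and their relatives, the numbers that passed at 1, 3, 6, 12 and 24 h were 1, 1, 2, 3 and 1, where 7.39%, 16.5%, 12.1%, 8.62% and 8.4% of all genes passed. Among them Cht7 was lower at 1, 3, 6 and 12 h (-1.21, -1.33, -1.20 and -0.75), and Idgf3, a chitinase-like growth factor, was higher at 12 h (1.23) and 24 h (1.39). Of 7 tested chitin-binding proteins of the peritrophin type, Gasp and obst-A were lower at 3 h (-0.94 and -1.61) and 6 h (-0.83 and -0.73), and Peritrophin-A was lower at 12 h (-0.95).

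Some genes listed as other cuticle and apical matrix proteins, which the choice by symbol had left out, were higher as well. Of 16 tested, 1 was higher at 1 h, 5 were higher and 1 lower at 3 h, 3 were higher at 6 h and 2 at both 12 h and 24 h on day 2, against the same shares of all genes. The gene pot (papillote), which codes for a transmembrane protein with a zona pellucida domain that anchors the cuticle, was higher at all 5 times of day 2, by 0.87, 0.71, 0.89, 1.00 and 0.77. The cuticle protein genes Pcp and Edg78E were higher at 3 h by 2.06 and 0.92, and Edg91 stood at 0.619 CPM after TBI and 0.0722 CPM in shams at 12 h. The adhesive matrix gene tnc was higher by 1.57 at 3 h and 0.75 at 6 h. Of 11 tested genes of chitin synthesis reb was the 1 that passed, lower at 1 h (-0.96) and 3 h (-0.89), where 2.41% and 6% of all genes were lower. Of 20 tested ecdysone pathway genes 2 were higher and 2 lower at 1 h (4.98% and 2.41% of all genes). At 3, 6 and 24 h 1 was lower (6%, 4.26% and 2.2% of all genes), Cyp18a1 each time (-1.61, -1.39 and -1.06). Hr4 was the 1 that passed at 12 h, higher by 1.01, where 4.99% of all genes were higher. None of 7 genes of eclosion and tanning hormones passed at any of these 5 times, where 7.39% to 16.5% of all genes passed.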

How the data were processed

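Polyadenylated RNA of whole heads was sequenced from stranded libraries on a NextSeq instrument, per the labels' protocols. The deposited table holds raw counts of reads per gene for 17481 genes and 5 classes of unassigned reads, with a column for each library and 0 columns of other samples. The submitters' processing notes name HISAT2 for alignment, HTSeq for counting, and FastQC, MultiQC, Picard and DESeq2. Tool versions, build, annotation and strand setting were not found in any source used here. Unassigned reads made up 14.0% to 21.8% of reads on library day 1 and 21.0% to 32.1% on day 2, and were left out of library sizes and tests. Symbols were found for 17343 gene identifiers in the BDGP6.54 annotation (release 115), which also gave positions and exon lengths.

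Groups follow the labelled treatment, time point and day of library preparation. In R 4.3.3, edgeR 4.0.16 (with limma 3.58.1) fitted 1 quasi-likelihood model per day with TMM factors and genes kept by filterByExpr: 10739 genes and 22 residual degrees of freedom on day 2, 10567 and 20 on day 1. The threshold was an adjusted p of 0.05 (Benjamini-Hochberg, over all genes of the day). The fit was also run on simulated counts, drawn independently for each library. They held no paired samples and no library that stood apart, so that run does not cover either. Counting intervals are exact at 95% and cover counting error only. The alternatives were DESeq2 1.42.0, RLE size factors, all genes with a count, the replicate number as a block, a fit of the groups compared alone, levels without TMM factors, and leaving out each library in turn. After seeing the data, the comparison of 10 d with 24 h shams, that of the library days, the shares of genes past the threshold at any time, and the 12 h and joint TBI tests of all members without replicate 3 of the 12 h shams were added.

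The members, gene lists and tests were chosen with earlier results of these data known. The text names Crys, Cpr66D, Cpr72Ec, Acp1 and the 12 members with the highest CPM per kb in the day 2 controls; up to 8 higher and 8 lower members per comparison with a mean of at least 1 CPM over the day; up to 10 members per joint test; and up to 4 genes per list and comparison. Other members, such as Cpr47Eb, Cpr49Ab, Ccp84Ad, Ccp84Ag, Vajk1 and Vajk4, were named after their values were seen. The labels give 3 sham and 3 TBI samples per time shared replicate numbers. Same-numbered sham and TBI samples deviated together (every r over 0.1) at 1 h, 6 h, 24 h on day 2, 3 d, 7 d and 10 d, from the data and not from the labels.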

Additional observations from a re-analysis of the deposited data

Results flagged for a closer look

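The TBI effect of 4 members differed between the 5 times of library day 2 in a joint test of the difference itself (edgeR quasi-likelihood, Benjamini-Hochberg adjusted). Cpr100A had an adjusted p of 0.00129, with TBI against sham at -0.79 at 3 h and 0.90 at 24 h. TwdlT had an adjusted p of 0.00453, with 1.48 at 3 h and -0.54 at 12 h, the latter 0.05 without sham replicate 3. Cpr49Aa had an adjusted p of 0.0204 and Cpr49Ac one of 0.0285, with 3.56 and 2.24 at 12 h. Without replicate 3 of the 12 h shams the adjusted p of Cpr49Aa was 0.057 and those of Cpr100A, TwdlT and Cpr49Ac were 0.000102, 0.0038 and 0.0271. Leaving out 1 library at a time left 3 or 4 members past the threshold of this test.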

How the results depend on the processing

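Counts of members past the threshold moved by less than 1.5 times in 260 of 292 alternatives of the 21 comparisons. Of 769 alternatives for single named values, 142 lost their call and 0 changed direction. A fit of the groups compared alone gave 2 calls for TBI at 1 h (0 in the model of the whole day), 5 at 6 h (10), 5 at 12 h (8) and 2 for the 24 h shams against the controls of day 1 (5). Without a filter on low counts the 24 h shams of day 2 gave 1 call against the controls (3). DESeq2 gave 1 call where edgeR gave 0 for TBI at 1 h, TBI at 7 d, the 7 d against 3 d shams and the joint TBI test of day 1; it gave no adjusted p for the 6 members called in the 3 d against 24 h shams. With the replicate number as a block the count was 1 for TBI at 1 h, 1 for the 24 h shams against the controls of day 2 and 1 for the joint TBI test of day 1, and the block moved no other count by 1.5 times or more. At 3 h, 12 h and 24 h on day 1 at least 1 same-numbered pair had r under 0.1, so whether these samples were paired was not settled. At 24 h the pairs had r of 0.142, 0.0791 and 0.359 on day 1 and 0.154, 0.121 and 0.396 on day 2. Replicate 3 at 3 h had r of 0.576, and at 15 d there were 2 pairs.

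Leaving out 1 library at a time gave 0 to 1 calls for TBI at 1 h, 2 to 5 at 3 h, 6 to 8 at 6 h, 5 to 9 at 12 h, 2 to 6 at 24 h on day 2 and 2 to 7 at 24 h on day 1. The 24 h shams against the controls of day 2 gave 1 in each case, and the joint TBI test of day 1 gave 0 to 1. The causes of these shifts were not tested. The 76 members under the count filter were not tested, so changes in them were not detectable at this depth. With the block, the calls of Cpr97Eb and Cpr49Aa at 6 h, Cpr76Bd at 24 h on day 2, and TwdlE and Cpr97Ea between the 24 h shams and controls of day 2 were lost, and no other call of a named member.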

Other observations

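In sham flies of library day 1, other genes of chitin and cuticle differed between 10 d and 24 h beside the members. Of 13 tested chitinases and chitinase-like genes, 7 were higher and 1 lower at 10 d (8.54% and 11.2% of all genes), with a median log2 fold change of 0.70 against 0.02 over all genes. The growth factor gene Idgf5 was at 81.3 CPM at 10 d and 35.5 CPM at 24 h (log2 fold change 1.19 ± 0.29, edgeR adjusted p = 0.00675), and Cht5, a chitinase gene, at 9.14 and 4.38 CPM (1.05 ± 0.32, edgeR adjusted p = 0.0243). Of 5 tested chitin deacetylases 3 were lower and none higher: serp was at 11.4 and 25.3 CPM (-1.15 ± 0.27, edgeR adjusted p = 0.00528), and verm and Cda5 fell too. Of 20 tested ecdysone pathway genes 6 were lower and 1 was higher, among them ftz-f1, a nuclear receptor gene, at 82.2 and 138 CPM (-0.74 ± 0.12, edgeR adjusted p = 0.000182). The gene tyn (trynity), which codes for a zona pellucida domain protein of the apical matrix, was lower at 25.8 and 52.3 CPM (-1.02 ± 0.13, edgeR adjusted p = 7.94e-06). Epidermal markers gave no call among the 7 tested, and 9 of 10 neuronal markers were lower; their part in these values was not tested.

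At 24 h on day 1, 7 of 20 ecdysone pathway genes were lower after TBI and none was higher, where 7.41% of all genes were lower, beside 1 lower and none higher at 24 h on day 2, where 2.2% of all genes were lower. Neuronal markers gave 8 lower calls of 10 tested in the same day 1 comparison and no call at 24 h on day 2. Their part was not tested.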
